A study of Mus musculus with 237 samples.

Results

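The Hox cluster genes are the 39 entries of the deposited expression table, out of 36186, whose gene symbol is Hoxa, Hoxb, Hoxc or Hoxd followed by a number. They were chosen by name alone. The Hoxa cluster gives 11 of them on chromosome 6, Hoxb 10 on chromosome 11, Hoxc 9 on chromosome 15 and Hoxd 9 on chromosome 2. Their levels were measured by RNA sequencing of single cells from mouse embryonic kidneys, in RPKM (reads per length of transcript and per number of reads mapped in the cell). The study compared the cap mesenchyme, whose cells are the progenitors of the nephron, with the interstitial cells around it and with cap mesenchyme labelled as mutant for Pax2, a transcription factor of the kidney lineage.

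Cells fall into 5 groups. Near birth, at E18.5 (days of embryonic development), there are 74 cap cells, labelled wild type and as cap mesenchyme or derived from it, 71 wild type interstitial cells, and 44 cells of Pax2 mutant cap mesenchyme. Earlier, at E13.5, there are 18 wild type cap cells, and 29 cells of the mutant. The strain is given as mixed for all of them. The mutant allele and what drives its loss, and the marker used to sort the cells, are not given in the sources used here. The titles of the interstitial cells carry FoxD1_GCE, the name of an allele at Foxd1, a gene of the interstitial lineage. One further cell has a source name and a cell type label that contradict each other, and it entered no group.

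No label names an embryo, so the cells of a group cannot be taken as separate animals. Each group counts as 1 sample, no comparison has a replicate, and no test was made: the SD given is the spread between cells. Each group also carries a date of its own in its titles, which means that day and group cannot be told apart. The E18.5 mutant cells have a pool number of their own, pool 4, while the E13.5 cap and mutant cells share pool 3, and 22 of the interstitial cells share pool 2 with the E18.5 cap. Read depth is unknown for a table of RPKM, and how many genes a cell had at 1 RPKM or above was used in its place. The median was 5210.5 in E18.5 cap, 5178 in interstitium and 3643 in E18.5 mutant cells, and 5566 and 4560 in E13.5 cap and mutant cells. Pax2 itself reached 1 RPKM in 56 of 74 E18.5 cap cells, 18 of 71 interstitial cells, 0 of 44 E18.5 mutant cells, and at E13.5 in 15 of 18 cap and 17 of 29 mutant cells. Whether the mutant allele removes the transcript is not given in the sources used here, so "mutant" below means cells so labelled.

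Hox genes encode homeodomain transcription factors that give cells their position along the head-to-tail axis. Within a cluster, genes with low paralogue numbers are expressed towards the head and those with high numbers towards the tail, and genes of different clusters that share a number are the closest relatives. In the kidney the paralogue 11 genes are the best known: Hoxa11, Hoxc11 and Hoxd11 act redundantly in the metanephric mesenchyme, together with Pax2 and Eya1, to switch on Six2 and Gdnf, and paralogue 10 genes are known for their part in the interstitium. Hoxb7 is known from the ureteric bud, whose cells were not among those labelled here.

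Promoters of 3 members are shown because these genes carry the contrasts below: Hoxa10 and Hoxd10, 2 of the genes with the highest levels in cap cells, and Hoxa5, which was not lower in mutant cells. Each sequence is the 250 bases before a start of the gene in RefSeq (GRCm38.p6), 5′ to 3′ on the gene's strand. Hoxa10 also has another start in RefSeq, and the start shown is that of the deposited entry. The Hoxa5 start is also that of its deposited entry, while the Hoxd10 start shown lies 57 bases before that of its deposited entry. Capitals mark CCAAT, a box near many start sites, and GGGCGG, a GC box, in either orientation. The Hoxa10 stretch is chr6:52240855-52241104 on the minus strand, the Hoxd10 stretch chr2:74691641-74691890 on the plus strand, and the Hoxa5 stretch chr6:52204588-52204837 on the minus strand.
Hoxa10: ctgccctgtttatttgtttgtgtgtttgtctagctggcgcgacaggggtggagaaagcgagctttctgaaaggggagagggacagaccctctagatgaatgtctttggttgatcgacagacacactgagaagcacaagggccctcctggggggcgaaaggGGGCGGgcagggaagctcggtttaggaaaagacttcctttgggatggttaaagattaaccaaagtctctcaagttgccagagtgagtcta
Hoxd10: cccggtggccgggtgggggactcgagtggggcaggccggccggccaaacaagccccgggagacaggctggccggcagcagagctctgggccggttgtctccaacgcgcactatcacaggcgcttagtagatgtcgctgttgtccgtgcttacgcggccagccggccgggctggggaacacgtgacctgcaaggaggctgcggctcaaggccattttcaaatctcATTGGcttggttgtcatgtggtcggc
Hoxa5: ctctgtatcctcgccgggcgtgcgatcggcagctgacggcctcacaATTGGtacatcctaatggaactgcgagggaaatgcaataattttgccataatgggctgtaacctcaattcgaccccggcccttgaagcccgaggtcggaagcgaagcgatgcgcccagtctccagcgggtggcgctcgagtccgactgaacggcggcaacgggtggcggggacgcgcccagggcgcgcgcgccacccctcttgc

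The 250 bases before the start held 28 CpG dinucleotides in Hoxa5, 20 in Hoxd10 and 7 in Hoxa10. RefSeq's promoter table held 24 starts of 22 of the 39 members among 32851 starts in all. Its sequences run from 250 bases before to 50 after a start. Only the 250 bases before the start, called the window here, were searched. CCAAT, searched on both strands, stood in 14 of these 24 windows and in 33.8% of all windows. GGGCGG stood in 10 of 24 and in 32.7% of all, and TATAAA, the TATA box, in 4 of 24 and in 12.4%. Hoxa10 counts among the genes with CCAAT and with TATAAA, through a start other than that shown. CACGTG, an E-box, was found in 4 of 24 windows against 6.02% of all, and 1 of these 4 is the Hoxd10 window. TTTATG, the core read by the Cdx factors, was found in 5 of 24 windows against 10.8%, and TGATNNAT, a joint Hox and Pbx motif, in 4 of 24 against 7.68%. The median window of the members held 12.5 CpG dinucleotides, and that of all starts 6. These matches describe the letters only.

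Of the 39 members, 33 reached 1 RPKM, here called detected, in at least 1 labelled cell. The 6 others were Hoxa13, Hoxb13, Hoxc12, Hoxc13 and Hoxd13, at 0 in all 236 labelled cells, and Hoxd1, which stayed under 1 RPKM. All 4 paralogue 13 genes, which pattern the hindmost trunk and the genital tract, are thus among the silent ones. In 50% or more of a group's cells, 16 members were detected in E18.5 cap, 6 in interstitium, 4 in E18.5 mutant, 13 in E13.5 cap and 6 in E13.5 mutant cells. Detection peaked at paralogue numbers 8 to 10 in the Hoxa, Hoxc and Hoxd clusters, and at numbers 3 to 5 in Hoxb, whose cluster in this table has no paralogue 10, 11 or 12.

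**Figure D1:**
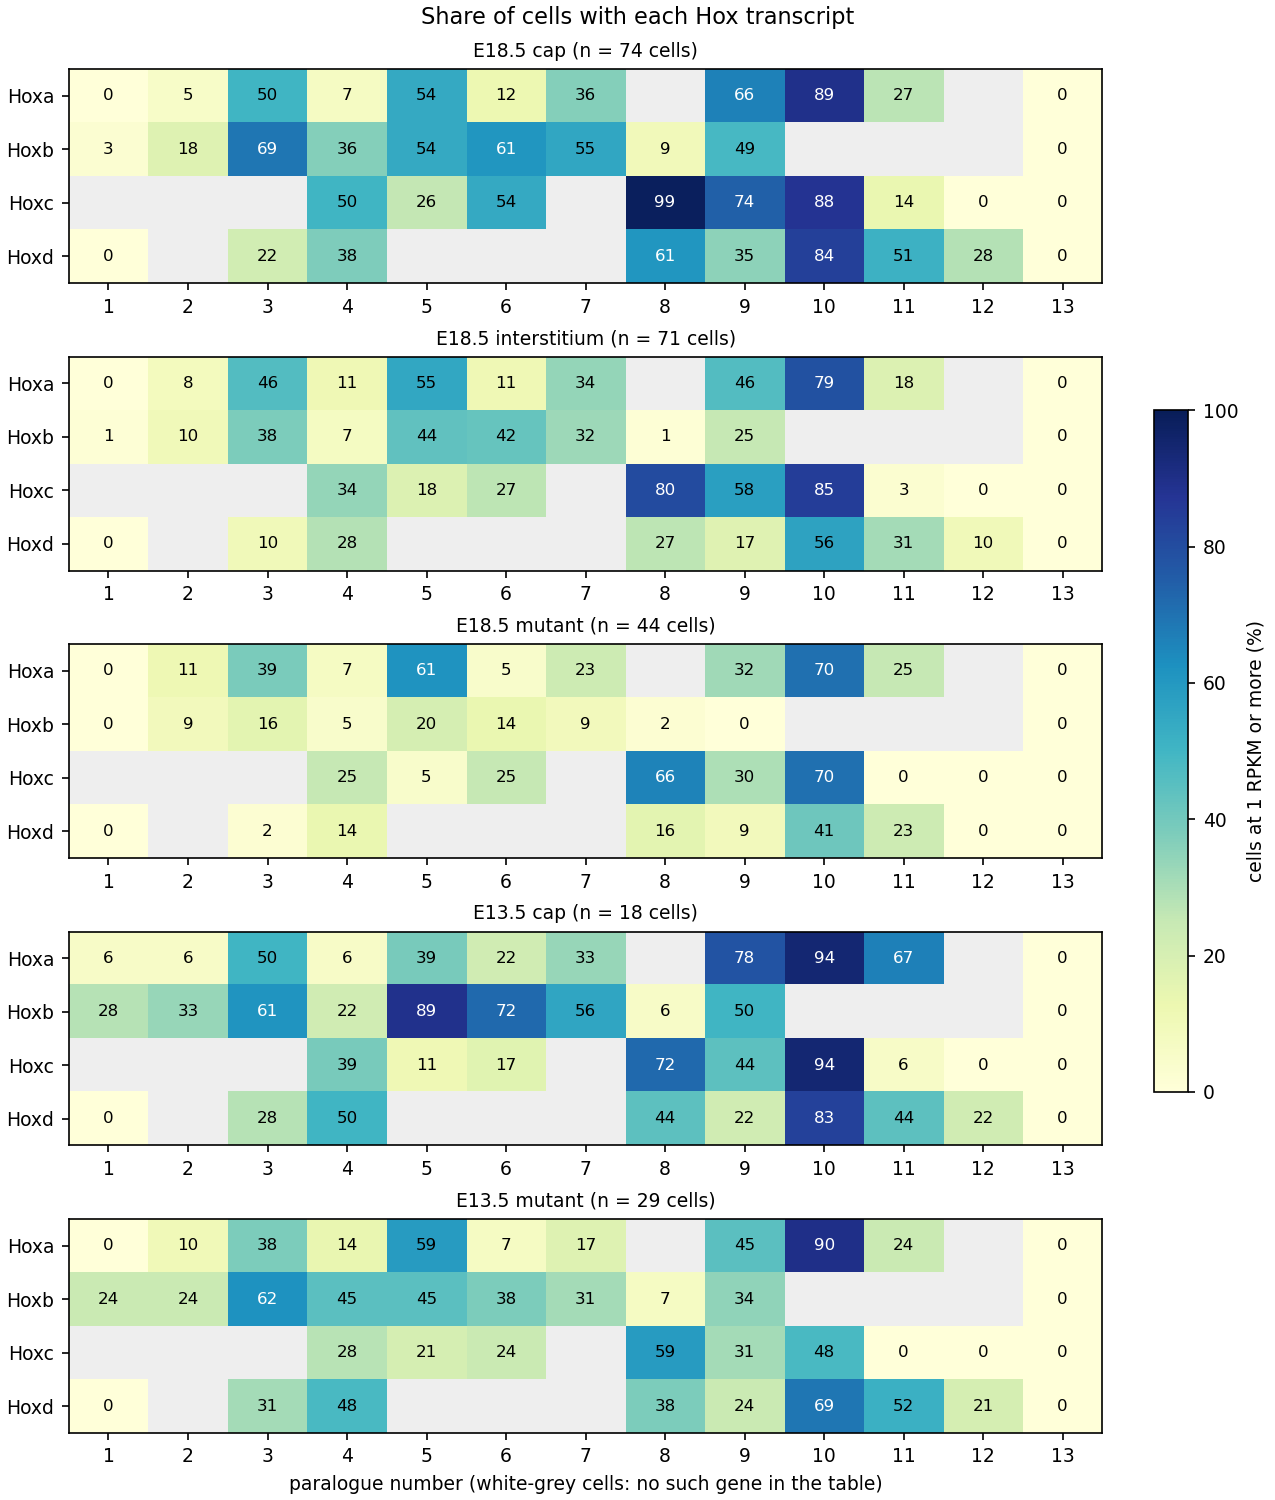
Share of cells (%) with each Hox gene at 1 RPKM or more, 1 panel per group, clusters in rows and paralogue numbers in columns; grey squares are numbers that the table does not hold. The darkest square of each panel lies at numbers 8 to 10, and the Hoxb row of the E18.5 mutant panel has its highest share at 20%.

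Hoxc10, Hoxa10 and Hoxc8 led at E18.5. Hoxc10 had the highest mean log2(RPKM + 1) of all members in the 3 groups of that age, with 4.99 ± 2.49 in cap (SD between cells, n = 74 cells), 4.38 ± 2.34 in interstitium (n = 71 cells) and 3.69 ± 2.95 in mutant cells (n = 44 cells). Hoxa10 came next with 4.79 ± 2.24, 3.68 ± 2.33 and 3.20 ± 2.56, and then Hoxc8 with 4.56 ± 1.72, 3.48 ± 2.07 and 2.95 ± 2.49. These 3 neighbours in the order lie within 1 SD of each other in each group. Hoxd10 came after them in cap cells (3.84 ± 2.44) and in interstitium (2.01 ± 2.19). In E18.5 mutant cells that place was held by Hoxa5, with 2.76 ± 2.67. At E13.5, Hoxa10 led in cap cells (5.13 ± 2.13, n = 18 cells) and in mutant cells (4.60 ± 2.51, n = 29 cells), while Hoxc10 was at rank 2 in cap cells and at rank 6 in mutant cells.

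E18.5 cap cells had a median of 15 detected Hox genes, with a range of 3 to 23. Interstitial cells had 10 (2 to 24) and E18.5 mutant cells 7 (2 to 12). E13.5 cap cells had 14 (7 to 20) and E13.5 mutant cells 10 (3 to 22). The ranges of all 5 groups overlap. Cells with more detected genes of any kind also had more detected Hox genes: over the cells of a group, Pearson's r was 0.784 in E18.5 cap, 0.730 in interstitium, 0.432 in E18.5 mutant, 0.569 in E13.5 cap and 0.289 in E13.5 mutant cells. Both counts come from the same library and share its depth. The comparisons at E18.5 are therefore also given for cells with 3000 to 5000 detected genes, 26 of the cap, 35 of the interstitium and 33 of the mutant, called matched cells below. This narrows the difference in gene number without removing it: the medians of matched cells were 4145 genes in cap, 4209 in interstitium and 3769 in mutant cells. At E13.5 only 2 cap cells lie in that range, so no matched value was made there.

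**Figure D2:**
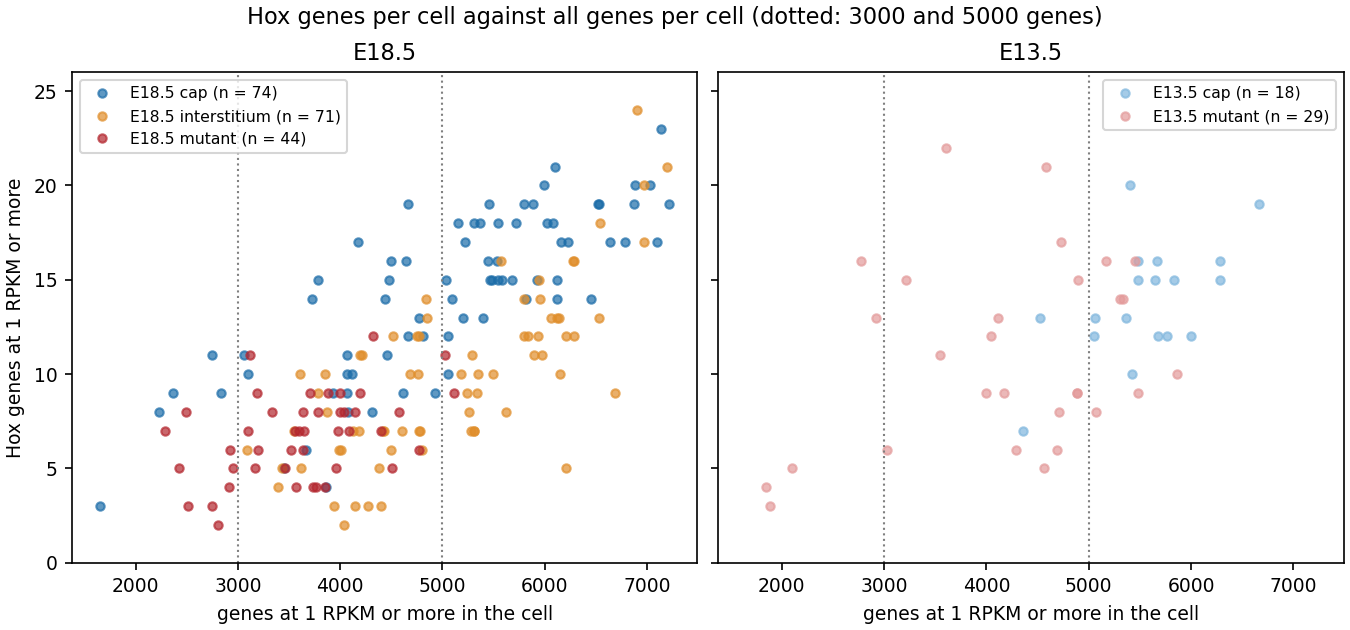
Detected Hox genes per cell (vertical axis) against all detected genes per cell (horizontal axis), 1 point per cell, E18.5 on the left and E13.5 on the right; dotted lines stand at 3000 and 5000 genes. Between the lines the cap cells spread above the interstitial and mutant cells but overlap with them.

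Interstitial cells had lower Hox levels than cap cells at E18.5, in all clusters but mainly in Hoxb, Hoxc and Hoxd. Of the 29 members detected in 10% or more of the cells of either group, 8 had a level at least 1 log2 unit below that of cap cells, and 0 lay that far above it. Over all 11219 genes that passed the same filter, 2.70% were lower by that much and 5.94% higher. Among genes that passed the filter in both groups, 8 of 23 members and 2.85% of all 9630 genes were lower. The median difference of the members was -0.69 log2 units, against 0.01 for all genes, and 28 of the 29 members were lower in sign. The Hox score, which is the mean of log2(RPKM + 1) over the 39 members in a cell, was 0.94 ± 0.42 in interstitium and 1.46 ± 0.45 in cap cells.

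The lower members stood at paralogue numbers 3 to 10. Hoxd10 (chr2:74691948-74695102, positions in mm10 as deposited) had a lowest, median and highest RPKM of 0, 19.5 and 562 in cap cells and of 0, 1.48 and 200 in interstitial cells. It was detected in 62 of 74 against 40 of 71 cells, and its mean log2 level differed by -1.83 in interstitium, less than its SD of 2.44 in cap cells. Hoxd8 (chr2:74705489-74707307) differed by -1.61 and was detected in 45 of 74 against 19 of 71 cells, with medians of 3.36 and 0 RPKM. The differences of the others were -1.37 in Hoxc9, -1.28 in Hoxb3, -1.11 in Hoxa10, -1.08 in Hoxc8 and -1.03 in Hoxb6. Each of these 7 differences is smaller than the SD between cap cells, and the ranges of the groups overlap. Hoxb9 completed the 8, with a difference of -1.09 and detection in 36 of 74 against 18 of 71 cells.

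Hoxa5 (mean difference -0.11), Hoxa11 (-0.02), Hoxc5 and Hoxa6 lay near 0 in this comparison, so the Hoxa cluster shows both a lower Hoxa10 and a level Hoxa5. By cluster, the mean score of interstitium differed from that of cap by -0.22 in Hoxa, -0.64 in Hoxb, -0.57 in Hoxc and -0.70 in Hoxd. Within pool 2 alone, with 22 interstitial cells, these differences were -0.02, -0.66, -0.59 and -0.72. In matched cells they were -0.34, -0.67, -0.46 and -0.47, and 8 members were again lower by 1 unit or more, 5 of them among the 8 of all cells (Hoxa10, Hoxb6, Hoxc9, Hoxd8 and Hoxd10). The other 3, Hoxa3, Hoxb2 and Hoxb7, replaced Hoxb3, Hoxb9 and Hoxc8. Hoxb2 passed the filter there through cap cells alone (7 of 26 cap and 2 of 35 interstitial cells). Over all genes in matched cells, 5.13% were lower and 10.6% higher.

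**Figure D3:**
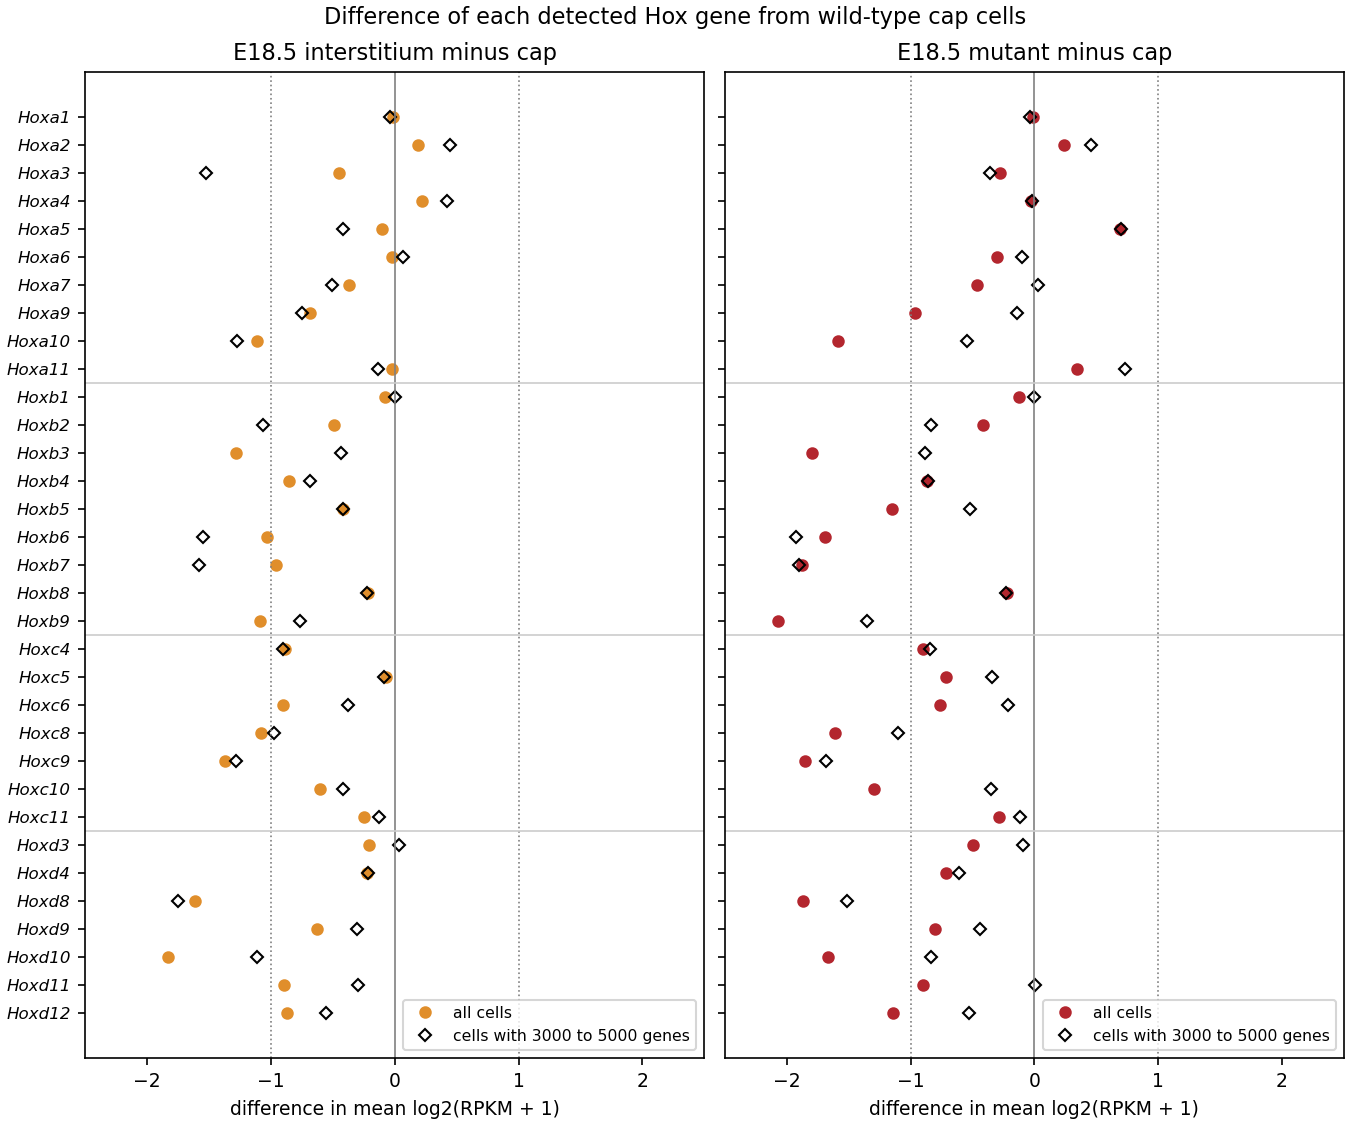
Difference in mean log2(RPKM + 1) from E18.5 cap cells for the 33 Hox genes detected in any labelled cell, interstitium on the left and mutant on the right; filled points use all cells, open diamonds cells with 3000 to 5000 genes, and dotted lines mark 1 log2 unit. Most points lie to the left of 0 in both panels, with Hoxa5 and Hoxa11 to the right of it in the mutant panel.

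E18.5 mutant cells showed lower Hox levels than wild type cap cells, least in Hoxa and most in Hoxb. Of 29 members tested by the same filter, 12 (41.4%) lay at least 1 log2 unit below cap cells and 0 that far above, while over 11100 genes 23.2% were lower and 4.51% higher. The whole table is thus shifted in these cells, with a median of -0.40 against -0.90 for the members. Among genes that passed the filter in both groups, 9 of 18 members and 24.9% of 8209 genes were lower. The other 3 lower members, Hoxb7, Hoxb9 and Hoxd12, passed it through cap cells alone, where they are high. In matched cells 6 of 26 members were lower (Hoxb6, Hoxb7, Hoxb9, Hoxc8, Hoxc9 and Hoxd8), against 10.5% of all genes lower and 9.17% higher. The medians there were -0.54 for the members and -0.06 for all genes. Hoxb7 (2 of 33 mutant cells) and Hoxb9 (0 of 33) again passed the filter through cap cells alone. No count over genes passing in both groups was made for matched cells.

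Hoxb9 (chr11:96271330-96276593) was, of the members with no E18.5 mutant cell at 1 RPKM, the one detected in the most cap cells. In cap cells its lowest, median and highest RPKM were 0, 0.850 and 121, with 36 of 74 cells at 1 RPKM or more. In E18.5 mutant cells it was listed at 0 in all 44, and 0 of 44 allows a share of up to 6.82% (3 counts of the total). Among the 2277 genes detected in 40 to 60% of cap cells, 25 (1.10%) were at 0 in all E18.5 mutant cells. Of the 8 Hox genes in that band, Hoxb9 was the 1 at 0. In matched cells Hoxb9 was detected in 9 of 26 cap and 0 of 33 mutant cells. In interstitial cells its median was 0 and its highest value 83.2 RPKM.

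Its neighbours in the cluster were also low. Hoxb7 (chr11:96286646-96290163) was detected in 41 of 74 cap, 23 of 71 interstitial and 4 of 44 mutant cells, with a mean log2 level of 2.28 ± 2.34, 1.32 ± 2.06 and 0.40 ± 1.53. Hoxb6 (chr11:96299171-96301569) was detected in 45, 30 and 6 cells, and its mean differed by -1.69 between mutant and cap cells. Hoxb3 differed by -1.80 and Hoxb5 by -1.15. Both Hoxb6 and Hoxb7 kept their difference in matched cells (-1.93 and -1.90), whereas that of Hoxb3 went to -0.88 and that of Hoxb5 to -0.52. At least 1 Hoxb gene was detected in 73 of 74 cap cells, 58 of 71 interstitial cells and 25 of 44 mutant cells (56.8%, exact Clopper-Pearson 95% interval 41.03 to 71.7%, which covers counting error only). In matched cells the counts were 26 of 26, 25 of 35 and 18 of 33. The Hoxb score of mutant cells differed from that of cap cells by -1.02, and by -0.85 in matched cells.

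Of the Hoxc genes, Hoxc8 (chr15:102990539-102994254) was detected in 73 of 74 cap cells, with a lowest, median and highest value of 0.721, 24.1 and 359 RPKM. In mutant cells these values were 0, 7.08 and 154 RPKM, and 29 of 44 cells passed 1 RPKM. Its mean log2 level differed by -1.61 from that of cap cells, and by -1.10 in matched cells. For Hoxc9 these differences were -1.86 and -1.68. Hoxc10 (chr15:102966796-102971897) had medians of 52.04 RPKM in cap and 9.25 RPKM in mutant cells and differed by -1.29, but by -0.35 in matched cells, so its call ends there.

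In the Hoxd cluster, Hoxd8 differed by -1.87 between mutant and cap cells, with detection in 45 of 74 against 7 of 44 cells, and by -1.51 in matched cells. Hoxd10 differed by -1.67, with 62 of 74 against 18 of 44 cells and medians of 19.5 and 0 RPKM. The highest Hoxd10 value of the mutant cells, 634 RPKM, was above that of the cap cells. In matched cells its difference was -0.83. Hoxd12 (chr2:74675030-74677705), the gene of highest number detected here, passed 1 RPKM in 21 of 74 cap cells and in 0 of 44 mutant cells, with 1 mutant cell at 0.854 RPKM. Its mean differed by -1.14 over all cells and by -0.53 in matched cells, where its call ends.

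The Hoxa cluster stood apart from the other 3. Its score differed by -0.21 in mutant cells over all cells and by 0.07 in matched cells. Hoxa10 (chr6:52231197-52240854) was the single Hoxa gene lower by 1 unit. Its lowest, median and highest RPKM were 0, 41.8 and 205 in cap cells and 0, 9.31 and 186 in mutant cells. Its mean log2 level differed by -1.59, and by -0.54 in matched cells. Hoxa9 fell just short of 1 unit, at 2.32 ± 1.95 in cap and 1.36 ± 2.18 in mutant cells. It was detected in 49 of 74 against 14 of 44 cells and differed by -0.14 in matched cells. Hoxa5 (chr6:52201754-52204587), known for its part in the lung, was at 1 RPKM or more in 40 of 74 cap, 39 of 71 interstitial and 27 of 44 mutant cells. Its median among the cells with it was 9.58, 9.07 and 21.7 RPKM. The mean was 0.70 units higher in mutant than in cap cells, both over all cells and in matched cells, less than the SD of 2.16 in cap cells. At least 1 Hoxa gene was detected in 71 of 74 cap, 68 of 71 interstitial and 43 of 44 mutant cells. The spans of Hoxa5 and of Hoxa3 overlap in the table, so reads shared between them cannot be told apart.

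**Figure D4:**
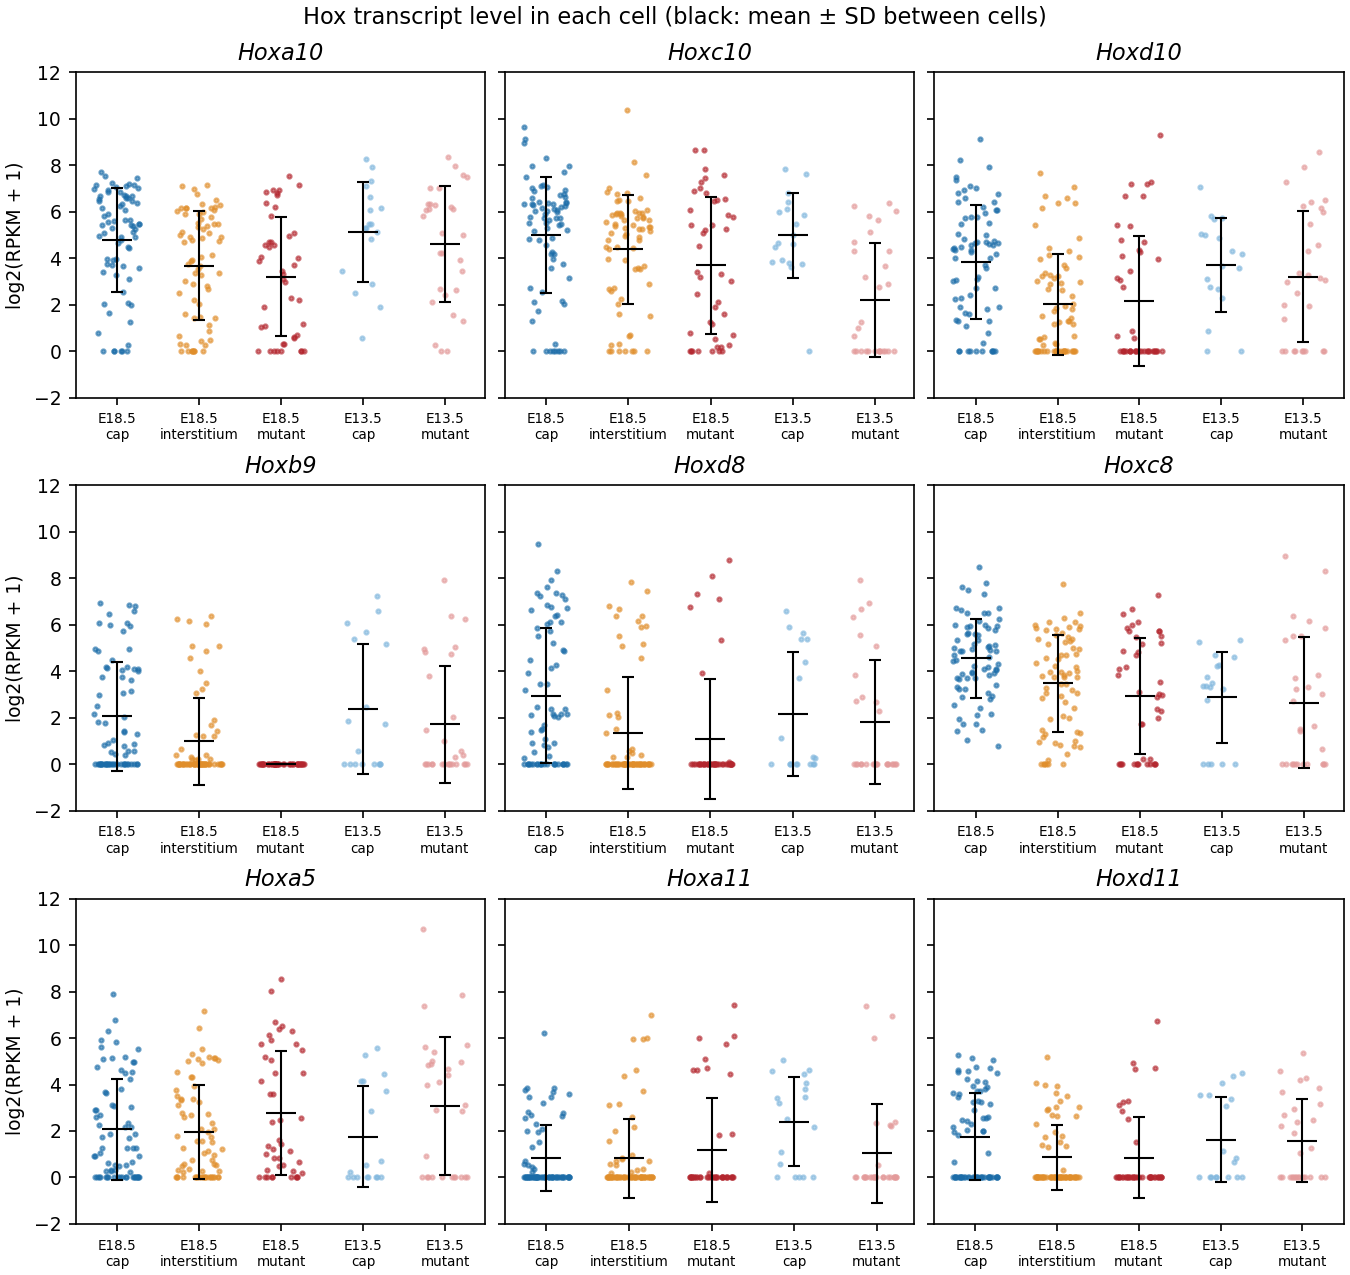
log2(RPKM + 1) of 9 Hox genes, 1 point per cell, in the 5 groups, with black bars for the mean ± SD between cells. Hoxb9 is at 0 in all 44 E18.5 mutant cells, while Hoxa5 reaches higher values in both mutant groups than in cap cells of the same age.

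Against interstitial cells, E18.5 mutant cells had no member of 25 that was lower or higher by 1 log2 unit, while over 10903 genes 23.4% were lower and 2.05% higher. The median difference of the members was -0.28, against -0.41 for all genes. The Hox scores of both groups lay within 1 SD, at 0.75 ± 0.26 in mutant and 0.94 ± 0.42 in interstitial cells, and the difference of -0.19 turned to 0.06 in matched cells. There 2 of 24 members, Hoxa3 and Hoxa5, were higher by 1 unit or more and none was lower, against 4.97% and 11.5% of all genes. Over all cells Hoxa5 differed by 0.80 and Hoxb7 by -0.92. The comparisons of mutant and interstitial cells with cap cells share the same cap cells, so a likeness between their differences is partly built in.

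Markers of the cell types moved with these results. Of 12 genes of interstitium and fibroblasts, 12 were higher by 1 log2 unit or more in interstitial than in cap cells and 11 in E18.5 mutant than in cap cells. The median of their summed RPKM was 36.5 in cap (range 0.0 to 2348), 1198 in interstitial (5.7 to 15176) and 2293 in mutant cells (99.6 to 9408). Of 12 nephron progenitor genes, 9 were lower in interstitial and 10 in mutant cells, with medians of the sum of 810 in cap (21.3 to 2410), 121 in interstitial (5.0 to 1416) and 123 in mutant cells (0.1 to 2534). Cited1 was at 0 in all mutant cells. Of 7 mural genes, 2 were higher by 1 unit or more in interstitial and 3 in E18.5 mutant cells, and 1, Des, was lower in both. The median of their sum was 14.2 RPKM in cap (0 to 776), 145 in interstitial (0 to 1881) and 40.7 in mutant cells (0 to 4648). The part of these markers in the Hox differences was not tested. Several lists had median sums at or under 0.297 RPKM in all 5 groups. These were ureteric epithelium (12 genes), endothelium (8), immune cells (7), tubule (7) and erythroid cells (5 found of 6). Single cells reached sums of 1905 RPKM for ureteric epithelium (E13.5 mutant) and 10057 RPKM for immune cells (E18.5 mutant). Of the 12 ureteric genes, 7 were at 0 in all E18.5 cap, 4 in all interstitial and 9 in all E18.5 mutant cells. Ret, Wnt9b and Wnt7b were among these in cap and mutant cells. For 8 committing nephron genes the median sums were 33.5 in E18.5 cap, 52.6 in interstitial and 39.6 RPKM in E18.5 mutant cells. At E13.5 these were 78.9 in cap and 45.9 RPKM in mutant cells. Over the 5 groups, median sums ran from 1.67 to 2.63 RPKM for podocyte genes. They ran from 0.785 to 11.9 for neural and glial and from 1.13 to 15.3 RPKM for muscle and cartilage genes.

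The cap and interstitial groups are mixed by their own markers. Six2, the defining factor of nephron progenitors, reached 1 RPKM in 62 of 74 E18.5 cap and in 19 of 71 interstitial cells. Interstitial cells with Six2 had a Hox score of 1.44 ± 0.36 and a median of 6057 detected genes, and those without it 0.76 ± 0.27 and 4767.5 genes. Cap cells with Six2 had 1.59 ± 0.36 and 5458 genes, and the 12 without it 0.80 ± 0.24 and 3894 genes. All 12 of these had Hoxc8, 7 had Hoxa10 and none had Hoxa11. Hox score, Six2 and gene number thus moved together within both groups. With cap cells limited to those with Six2 and interstitial cells to those without it, the count of members lower in interstitium went from 8 to 18, while 9.37% of all genes were then lower.

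At E13.5, a smaller share of Hox genes than of all genes was lower in mutant than in cap cells. Of 30 members, 4 (13.3%) lay at least 1 log2 unit below cap cells and 1 that far above, against 27.7% and 1.43% of 11449 genes. The median of the members was -0.21 and that of all genes -0.45. The Hox score was 1.16 ± 0.50 in mutant and 1.41 ± 0.36 in cap cells, a difference under 1 SD. By the ratio of mean RPKM, where a few cells with high values weigh more, the score difference of -0.25 became 0.40, with 12 members higher and 2 lower. All genes moved with it, to 17.2% higher and 21.3% lower. Both groups lie in pool 3, with dates of their own.

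Hoxc10 had the largest difference of any member in the 6 comparisons. It was detected in 17 of 18 cap cells, with a lowest, median and highest RPKM of 0, 27.8 and 231, and in 14 of 29 mutant cells, with 0, 0.980 and 82.9. The mean was 4.99 ± 1.82 against 2.21 ± 2.46 log2 units, a difference of -2.78. That gap exceeds the SD of either group, although the ranges overlap. Hoxa10, of the same paralogue number, was detected in 17 of 18 and 26 of 29 cells and differed by -0.52. Hoxd10, the third, was detected in 15 of 18 and 20 of 29 cells and differed by -0.49. At least 1 Hoxc gene was detected in 17 of 18 cap and 21 of 29 mutant cells, while Hoxd genes were detected in all cells of both groups.

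Hoxa11 was detected in 12 of 18 cap and 7 of 29 mutant cells at E13.5, with medians of 6.48 and 0 RPKM and highest values of 32.2 and 164 RPKM. Its mean log2 level differed by -1.36 in the mutant, while the mean of its RPKM was higher there, 12.5 against 9.21, since few mutant cells had high values. Hoxb5 differed by -1.21, with 16 of 18 against 13 of 29 cells. By the ratio of mean RPKM, Hoxa11 turned to 0.41 and Hoxb5 to 0.06. Hoxa9 differed by -1.19, with 14 of 18 against 13 of 29 cells. Hoxa5 was the member that was higher, by 1.32 units, with 7 of 18 cap and 17 of 29 mutant cells and medians of 0.309 and 7.68 RPKM. Its highest mutant value, 1658 RPKM, was the highest of Hoxa5 in any labelled cell. Of the 12 interstitium genes, 4 were higher in E13.5 mutant cells, and 9 of the 12 progenitor genes were lower. Their part in the Hox values was not tested.

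Pax2 transcripts were present in 17 of the 29 E13.5 mutant cells. These 17 had a Hox score of 1.33 ± 0.52 and Hoxb9 in 9 of them, and the 12 without Pax2 had 0.93 ± 0.36 and Hoxb9 in 1. Median gene numbers were 4585 and 4104.5. With the 12 alone, the count of members lower than in cap cells was 7 in place of 4, and none was higher, while 32.9% of all genes were then lower and 3.73% higher.

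With age, the mean log2 levels of the paralogue 10 genes in cap cells moved little, and calls fell at other numbers. From E13.5 to E18.5 the mean of Hoxc10 differed by 0.00, that of Hoxd10 by 0.14 and that of Hoxa10 by -0.33. On the RPKM scale Hoxc10 and Hoxd10 were higher at E18.5, the median of Hoxc10 at 52.04 against 27.8 and the mean of Hoxd10 at 45.6 against 25.7 RPKM. In the Hoxc cluster, Hoxc8 was 1.68, Hoxc9 1.54 and Hoxc6 1.13 units higher at E18.5, and the Hoxc score was 1.91 ± 0.63 against 1.28 ± 0.60. Hoxc8 was detected in 13 of 18 cells at E13.5 and in 73 of 74 at E18.5, with medians of 9.32 and 24.1 RPKM. Lower at E18.5 were Hoxa11, with a difference of -1.54, Hoxb5 with -1.14 and Hoxb1 with -1.14. Of 29 members, 3 were thus higher and 3 lower, against 2.53% and 14.5% of 11423 genes. Of the lower ones, Hoxb1 passed the filter through E13.5 cap cells alone, where it is high. With the filter passed in both groups, 2 of 27 members and 16.6% of 9691 genes were lower, and 3 of 27 members were higher. Hoxb1, known from the hindbrain, was detected in 5 of 18 cap and 7 of 29 mutant cells at E13.5, and in 2 of 74 cap, 1 of 71 interstitial and 0 of 44 mutant cells at E18.5. The E13.5 cap group has 18 cells, and age, pool and day cannot be told apart.

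Mutant cells of E18.5 had lower Hoxb and Hoxd levels than those of E13.5. Of 29 members, 8 lay at least 1 unit below the earlier cells, against 11.5% of 10872 genes, and 1 that far above, against 6.69%. The 8 were Hoxa10 (-1.40), Hoxb3 (-1.57), Hoxb4 (-1.38), Hoxb5 (-1.07), Hoxb7 (-1.12), Hoxb9 (-1.72), Hoxd4 (-1.34) and Hoxd10 (-1.03). Of these, 3 passed the filter in 1 group only. With the filter passed in both groups, 5 of 19 members and 11.9% of 8131 genes were lower. Hoxc10 was the higher one, by 1.48, with detection in 14 of 29 cells at E13.5 and in 31 of 44 at E18.5. The Hoxb score was 1.21 ± 0.90 at E13.5 and 0.28 ± 0.36 at E18.5, a gap larger than the SD of either group. At least 1 Hoxb gene was detected in 27 of 29 and in 25 of 44 cells. In matched cells, 17 of E13.5 and 33 of E18.5, 10 members were lower, against 12.5% of all genes. Hoxb5 and Hoxb7 (both -0.62) lost the call there, and Hoxa5 (-1.38), Hoxb2 (-1.08), Hoxd3 (-1.32) and Hoxd11 (-1.02) gained it. Of the members lower in matched cells, Hoxb4, Hoxb9 and Hoxd3 passed the filter through E13.5 cells alone. The Hoxb score difference in these cells was -0.87 and the Hoxc difference 0.15.

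Paralogue 10 had a higher score than paralogue 9, paralogue 11 and the groups of 1 to 4 and 5 to 8, in all 5 groups of cells. It was 4.54 in E18.5 cap, 3.36 in interstitium, 3.02 in E18.5 mutant, 4.61 in E13.5 cap and 3.34 in E13.5 mutant cells. In the same order, paralogue 9 was at 2.13, 1.19, 0.71, 1.78 and 1.37, paralogue 11 at 0.97, 0.59, 0.69, 1.44 and 0.87, and paralogues 5 to 8 together at 1.88, 1.27, 0.98, 1.59 and 1.37. The score of paralogues 9 to 11 together was 2.51 ± 0.99 in E18.5 cap, 1.66 ± 0.83 in interstitium, 1.40 ± 0.68 in E18.5 mutant, 2.53 ± 0.94 in E13.5 cap and 1.81 ± 0.92 in E13.5 mutant cells. The mutant difference at E18.5 was -1.11 over all cells and -0.47 in matched cells. That of the interstitium was -0.85 and -0.65. For paralogues 1 to 4 the scores were 0.83 ± 0.47, 0.49 ± 0.39, 0.38 ± 0.34, 0.94 ± 0.37 and 0.95 ± 0.73 in the same order of groups.

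Paralogue 10 was detected through at least 1 gene in 72 of 74 E18.5 cap, 68 of 71 interstitial, 41 of 44 E18.5 mutant cells, and at E13.5 in 18 of 18 cap and 28 of 29 mutant cells. The groups differed more in how many of its 3 genes a cell held. All 3 were detected together in 56 of 74 E18.5 cap cells (75.7%, 95% interval 64.3 to 84.9%), 29 of 71 interstitial cells (40.8%, 29.3 to 53.2%), 8 of 44 E18.5 mutant cells (18.2%, 8.19 to 32.7%), and at E13.5 in 14 of 18 cap and 10 of 29 mutant cells. In matched cells the counts were 14 of 26 cap, 9 of 35 interstitial and 7 of 33 mutant cells. Hoxa10 and Hoxc10 were detected together in 60 of 74 cap and 21 of 44 mutant cells, and in E18.5 mutant cells Hoxa10 alone was found in 10 cells and Hoxc10 alone in 10. At E13.5, 13 of 29 mutant cells had Hoxa10 without Hoxc10 and 1 had Hoxc10 without Hoxa10.

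Paralogue 11 transcripts were sparse. Hoxd11 (chr2:74682393-74684138) was detected in 38 of 74 E18.5 cap, 22 of 71 interstitial, 10 of 44 E18.5 mutant cells, and at E13.5 in 8 of 18 cap and 15 of 29 mutant cells, with highest values of 37.3, 35.4, 105, 21.7 and 40.02 RPKM. Its mean difference from cap cells was -0.90 in E18.5 mutant cells, 0.00 in matched cells, and -0.03 at E13.5. Hoxa11 (chr6:52242106-52245767) was detected in 20 of 74, 13 of 71, 11 of 44, 12 of 18 and 7 of 29 cells in the same order. Its highest values were 73.3, 125, 168, 32.2 and 164 RPKM, so that E13.5 cap cells held it most often but had the lowest maximum. Hoxc11 was detected in 10 of 74 E18.5 cap, 2 of 71 interstitial and 1 of 18 E13.5 cap cells and in 0 cells of both mutant groups, where 0 of 44 and 0 of 29 allow shares of up to 6.82% and 10.3% by the same 3 counts. At least 1 of the 3 was detected in 46 of 74, 30 of 71, 19 of 44, 13 of 18 and 17 of 29 cells. In matched E18.5 cells these counts were 12 of 26 cap, 10 of 35 interstitial and 16 of 33 mutant cells, with intervals that overlap.

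The highest paralogue number detected in a cell was 12 in 21 of 74 E18.5 cap, 7 of 71 interstitial, 0 of 44 E18.5 mutant cells, and at E13.5 in 4 of 18 cap and 6 of 29 mutant cells. It was 10 in 20, 37, 23, 4 and 8 cells. In matched cells a paralogue 12 gene, which was Hoxd12 in all cases, was detected in 4 of 26 cap, 0 of 35 interstitial and 0 of 33 mutant cells. Hoxd11 and Hoxd12, adjacent genes, were detected together in 13 E18.5 cap cells and Hoxd12 without Hoxd11 in 8.

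**Figure D5:**
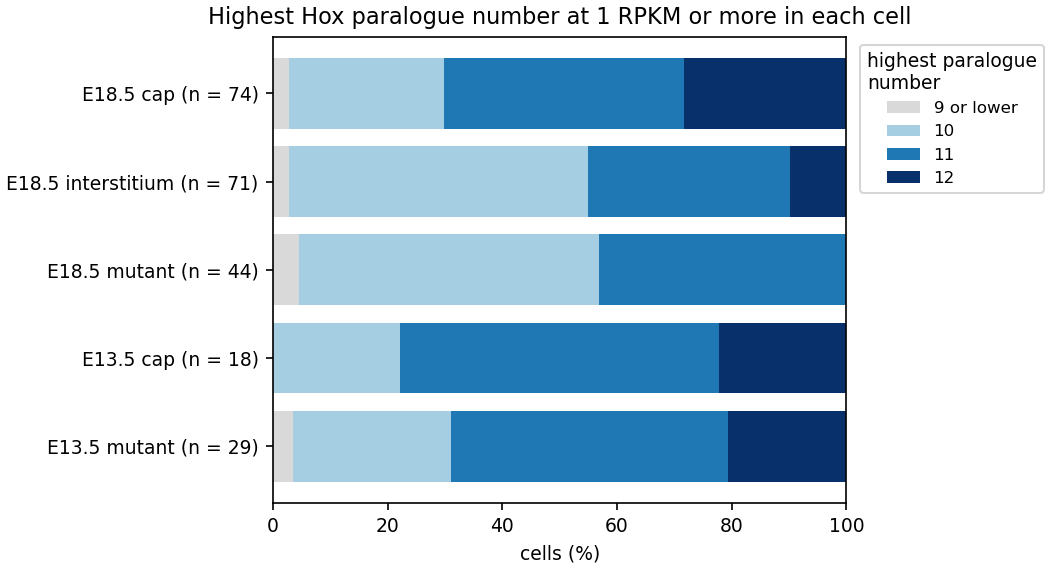
Share of cells (%) by the highest Hox paralogue number at 1 RPKM or more, 1 bar per group. Number 12 takes 28.4% of E18.5 cap cells, 9.86% of interstitial cells and none of the 44 E18.5 mutant cells.

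Genes of all 4 clusters were detected in the same cell in 70 of 74 E18.5 cap, 44 of 71 interstitial, 15 of 44 E18.5 mutant cells, and at E13.5 in 17 of 18 cap and 20 of 29 mutant cells. In matched cells the counts were 23 of 26 cap, 16 of 35 interstitial and 12 of 33 mutant. Interstitial and E18.5 mutant cells lacked mostly a Hoxb or a Hoxd gene: 13 of 71 and 19 of 44 had no Hoxb gene, and 14 of 71 and 17 of 44 no Hoxd gene, while 3 and 1 had no Hoxa gene.

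Between and around the Hox genes the table holds 18 other entries inside the clusters, 12 of them detected, and 18 within 100000 bases of a cluster's ends, 6 of them detected. Hoxa11os, the antisense transcript of Hoxa11, was detected in 47 of 74 E18.5 cap, 23 of 71 interstitial, 9 of 44 E18.5 mutant cells, and at E13.5 in 13 of 18 cap and 12 of 29 mutant cells. Its difference from cap cells of the same age was -1.71 in E18.5 mutant, -1.52 in interstitial and -1.59 in E13.5 mutant cells. In E18.5 cap cells 17 had both Hoxa11 and Hoxa11os, 30 Hoxa11os alone and 3 Hoxa11 alone. In E18.5 mutant cells these numbers were 3, 6 and 8. Whether counting used strand is not given in the sources used here, so reads of these overlapping genes cannot be told apart. 1700109F18Rik, another entry inside the Hoxd cluster, was detected in 22 of 74 cap, 14 of 71 interstitial and 0 of 44 mutant cells at E18.5. Gm53, in the Hoxb cluster, was detected in 12, 7 and 0, and Mira, in the Hoxa cluster, in 28, 12 and 8. Mutant cells had fewer detected genes of any kind. No matched counts, and no shares over genes with like detection in cap cells, are given for these entries. Lnp and Mtx2, genes that flank the Hoxd cluster, differed by 0.06 and -0.54 between E18.5 mutant and cap cells. The 7 Hoxd genes that passed the filter there had a median of -0.90, with 3 of them lower by 1 unit or more. Over all genes of that comparison the median was -0.40, and 23.2% were lower. Hoxd12, 1 of the 3, passed the filter through cap cells alone. The Hoxd score differed by -0.84, and by -0.45 in matched cells. No matched value is given for Lnp and Mtx2.

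The Pbx, Meis and Pknox genes encode the TALE homeodomain proteins, cofactors that bind DNA beside Hox proteins. Of these 9 genes, 1 was higher and 1 lower by 1 unit in E18.5 mutant than in cap cells. Over all genes 4.51% were higher and 23.2% lower there. Meis1 was higher in both mutant and interstitial cells, at 2.15 ± 2.57 in cap, 7.08 ± 1.98 in interstitial and 6.96 ± 2.22 log2 units in E18.5 mutant cells, and it is also a marker on the interstitium list. At E13.5 it was at 6.12 ± 2.25 in cap and 5.38 ± 2.95 in mutant cells. Pknox1 differed from cap cells by -1.13 in interstitial and by -1.55 in E18.5 mutant cells.

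A list of 8 genes of the metanephric mesenchyme held Pax2, Eya1, Six2, Gdnf, Itga8, Osr1, Sall1 and Wt1. Of these, Pax2, Eya1, Six2 and Gdnf are named above with paralogue 11. From the list, 8 were lower by 1 unit or more in E18.5 mutant, 7 in interstitial and 8 in E13.5 mutant cells. The medians were -2.61, -1.75 and -2.25. Over all genes 23.2%, 2.70% and 27.7% were lower in these comparisons. All but Pax2, which is the mutated gene, are also among the 12 nephron progenitor genes above, so this is no separate result. In E18.5 mutant cells Eya1 differed by -4.33, Six2 by -4.74 and Gdnf by -1.93. Gdnf, which draws the ureteric bud into the mesenchyme, was 0.78 units higher in interstitial than in cap cells. Of paralogue 11 itself, Hoxd11 differed by -0.90 and Hoxa11 by 0.35 between E18.5 mutant and cap cells. The median over the 3 genes, -0.29, is the value of Hoxc11, a gene near the floor. Hoxc11 was detected in 10 of 74 cap and 0 of 44 mutant cells, so it had little room to be lower.

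Of 14 Polycomb group genes, whose proteins keep Hox genes silent, 11 passed the filter between E18.5 mutant and cap cells and 6 of these were lower, with a median of -1.17 against -0.40 over all genes. Ezh2, the catalytic subunit, was at 5.48 ± 2.36 in cap, 4.33 ± 2.71 in interstitial and 1.73 ± 2.64 log2 units in mutant cells. In interstitium 1 of 12 was lower. Of 8 Trithorax group genes, whose proteins keep Hox genes active, 2 were lower in E18.5 mutant and 1 in interstitial cells. Their median in mutant cells was -0.18. Over all genes, 23.2% were lower and 4.51% higher in E18.5 mutant than in cap cells, and 2.70% were lower in interstitial cells. Of 15 regulators of axial position, 7 passed the filter in the comparison of E18.5 mutant and cap cells, with 2 higher, the retinoic acid receptors Rarb (1.26) and Rarg (1.54), and 2 lower, Acvr2b (-1.80) and Gmnn (-2.42). Cdx1 and Cdx2, activators of Hox genes in the early embryo, were detected in no labelled cell.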

How the data were processed

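The authors deposited a table of RPKM per gene and cell, for which the submitters' processing notes name TopHat and the mm10 build. The TopHat version, gene models and counting rule are not given in the sources used here. Per the labels' protocols, kidneys were digested with proteases, cells were sorted by flow cytometry, and each was captured and lysed in a Fluidigm C1 device. Ratios of low values between cells did not fall on whole-read steps (7.22% of genes in the 3 fullest bins of 0.02 log2 units, the median of 100 pairs of cells), so depth is unknown.

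Groups follow the labels' source name, cell type, genotype and age. Levels were taken as log2(RPKM + 1), which understates differences of low genes, and averaged over cells. Detected means 1 RPKM or more. A gene entered a comparison when 10% of either group's cells had it, and a difference of 1 log2 unit was called. Such calls rest on 1 sample per group, and no p-value was computed. Genes named in full differ by 1 log2 unit and are detected in 50% of the higher group's cells, or belong to paralogue 11. Hoxa5, Hoxb9 and Hoxd12 were named outside this rule in the E18.5 comparisons, after their values were seen. The members and lists were chosen with earlier results of these data known. Intervals of shares above 0 are exact Clopper-Pearson at 95%, and a share of 0 is given the limit of 3 counts of the total. No doublet caller was run. Promoter sequences are RefSeq's (GRCm38.p6), and 39 members matched RefSeq by ID and symbol, 12 with the same start and end. Python 3.11.15, pandas 2.3.3, numpy 2.4.6 and scipy 1.17.1 were used. Alternatives covered the pseudocount (0.1 and 10), scaling of cells, means of RPKM, filters (none and 25%), gene number per cell, Six2 and Pax2 in the cells, pool 2 alone, and cells with 20000 RPKM or more of LOC100503946, a high entry.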

Additional observations from a re-analysis of the deposited data

Results flagged for a closer look

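The cell with contradictory labels, of E13.5, had Hoxc4 at 12.9 RPKM, above the highest of the 18 E13.5 cap cells, 7.21 RPKM. The cell entered no comparison.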

How the results depend on the processing

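No paired analysis was possible because each group is 1 sample and the labels tie no cells together across groups. Depth per cell is unknown, and the number of genes per cell stood in for it. Of the values for single genes and cluster scores under an alternative, 550 moved by less than 1 SD between cells and 11 by more. Of the scores over all members or paralogues 9 to 11 and the counts of members, 181 stayed within 1 SD or 1.5 times and 49 did not. Among single genes, 2 called differences turned in sign, Hoxa11 (0.41) and Hoxb5 (0.057) between E13.5 mutant and cap cells by the ratio of mean RPKM. The cause of the other changes below was not tested.

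With a pseudocount of 0.1 the E18.5 mutant minus cap difference was -1.35 for the Hox score and -1.97 for paralogues 9 to 11, and lower members numbered 21 there, 16 in interstitium minus cap, 10 in mutant minus interstitium (1 higher), 10 at E13.5 (2 higher), 5 between cap ages (8 higher) and 16 between mutant ages. All genes shifted too, with 43.8%, 9.85%, 44.1%, 45.5%, 26.8% and 25.7% lower in the same order. Higher were 4.40% of all genes in mutant minus interstitium, 4.54% at E13.5 and 8.53% between cap ages. With a pseudocount of 10, which shrinks all differences, the E18.5 mutant score difference was -0.25, and lower members numbered 1 at E13.5 and 0 in the other comparisons. Higher members numbered 0 in all 6, including E13.5, cap ages and mutant ages. Over all genes, 7.90% were lower at E13.5 and 0.34% to 5.86% in the other comparisons, and 0.24% to 2.16% were higher.

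By the ratio of mean RPKM, the score difference was 0.40 at E13.5 and -0.84 between mutant ages. Higher and lower members were then 3 and 12 in E18.5 mutant minus cap, 1 and 14 in interstitium minus cap, 3 and 4 in mutant minus interstitium, 12 and 2 at E13.5, 8 higher between cap ages, and 3 and 17 between mutant ages. Over all genes, 18.6% were higher and 22.3% lower in E18.5 mutant minus cap, 12.96% and 9.85% in interstitium minus cap, 14.7% and 21.2% in mutant minus interstitium, 17.2% and 21.3% at E13.5, 15.03% and 13.4% between cap ages, and 22.8% and 21.7% between mutant ages. Median-ratio scaling of cells gave 1 higher member in mutant minus interstitium, 2 lower and 2 higher at E13.5, and 1 lower between cap ages. The shares of all genes in the same order were 2.91%, 20.1%, 2.21% and 10.2%. This scaling moved the median of all genes in E18.5 mutant minus cap from -0.40 to -0.26.

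Matched gene number gave 6 lower members in E18.5 mutant minus cap and 2 higher in mutant minus interstitium, against 10.5% and 4.97% of all genes. It could not be made against E13.5 cap, with 2 cells. Without the cells high in LOC100503946, 1 member was higher in E18.5 mutant minus cap, 2 lower in mutant minus interstitium, 0 higher at E13.5, 1 lower between cap ages and 2 higher between mutant ages. The shares of all genes in the same order and directions were 4.19%, 24.3%, 3.03%, 7.66% and 5.50%. With the groups limited by Six2, 18 members were lower in interstitium minus cap, 7 at E13.5 and 5 higher between cap ages, against 9.37%, 30.5% and 4.07% of all genes. With E13.5 mutant cells lacking Pax2, an alternative chosen after seeing the data like the cluster scores, 7 members were lower and 0 higher at E13.5, and 2 higher between mutant ages. Over all genes, 32.9% were lower and 3.73% higher at E13.5, and 9.55% were higher between mutant ages.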

Other observations

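The E13.5 cell whose source name says cap mesenchyme and whose cell type label says interstitial had 6570 detected genes and 21 detected Hox genes. Among these, Hoxa10 was at 142 RPKM, Hoxc10 at 91.4, Hoxd10 at 48.1 and Hoxd12 at 21.9 RPKM. The medians of the E13.5 cap cells were 40.9, 27.8, 14.4 and 0 RPKM, and their highest values 308, 231, 132 and 26.1 RPKM. Six2 was at 143 and Pax2 at 24.7 RPKM in this cell, and Foxd1 and Pdgfra, markers of interstitium, were at 0.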
